A study of Sus scrofa with 10 samples.

Results

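The Wnt genes of pig (Sus scrofa) testis tissue and of tissue rebuilt from testis cells are described here across 10 libraries. The set was chosen by gene name and not by measured values. It holds the WNT ligands, the FZD receptors, the SFRP, DKK, RSPO and LGR families and 11 further genes, which are FRZB, WIF1, NOTUM, AXIN2, LEF1, TCF7, NKD1, LRP5, LRP6, RNF43 and ZNRF3. Of 55 such rows in the table of 27376 genes, 54 had at least 1 count and are the members. DKK1, a secreted inhibitor of the LRP co-receptors, had no count in any library and was dropped. By role the 54 members are 19 ligands, 12 receptors and co-receptors, 9 genes of the R-spondin arm, 10 secreted antagonists and 4 genes of target feedback and transcription.

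Wnt proteins are secreted lipid-modified signals that bind a Frizzled receptor together with LRP5 or LRP6. In the canonical branch this spares β-catenin from destruction, so that β-catenin enters the nucleus and acts with LEF1 or TCF7 on target genes such as AXIN2 and NKD1, which in turn damp the signal. RNF43 and ZNRF3 remove Frizzled from the cell surface, R-spondins bound to LGR receptors counter that removal, and SFRP, FRZB, WIF1 and DKK proteins or the esterase NOTUM act outside the cell against the ligands or the receptors. In the mouse gonad, RSPO1 and WNT4 favour the ovarian fate, and the pathway is held low in Sertoli cells of the developing testis.

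The GF group was 4 libraries of grafts grown from germ cells together with testicular fibroblasts. The FO group was 4 libraries of grafts grown from testicular fibroblasts alone. For both, primary pig cells were injected with concentrated Matrigel into the back skin of a mouse that the labels call SKID, and the tissue was taken 6 months later. The control group was 2 libraries of testis tissue, titled with an unexplained code, 5D, and of an age that the labels do not otherwise give. If its letter stands for days, as the letter in the graft titles was read as months, the code may be an age in days. The labels do not say so. The labels repeat the graft protocol for these 2 libraries as well. The design asks whether the germ cells alter how the tissue rebuilds itself. The labels do not say that the replicates came from separate animals, cultures or grafts, so p-values measure the spread between libraries, which may be technical. Counts are on pig genes, and the part of mouse cells in the reads was not tested.

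Total counts ran from 2915534 to 4917325 in GF, from 4033509 to 4887878 in FO and from 5844944 to 7013911 in control testis. GF 3 and GF 4 had the lowest totals and lay farthest out on principal component 1 (46.3% of the variance), and FO 1 and GF 3 carried skeletal muscle transcripts, 675 and 168 CPM (counts scaled to a common library size) over 7 marker genes against at most 24.0 CPM elsewhere. Markers of other cell types moved with the groups. The sum of 6 germ cell markers was 413 to 2204 CPM in GF, 2.33 to 5.86 CPM in FO and 49.3 to 49.6 CPM in control testis, where PRM1 was at 0. The sum of 6 Sertoli cell markers was 14777 to 45349 CPM in GF, 4777 to 8604 CPM in FO and 4560 to 5102 CPM in control testis. CLU made up most of that sum, and the 6 genes did not move as 1. Between GF and FO, CLU, SOX9, AMH and MRO were higher in GF, WT1 was lower (211 CPM in GF, against 463 CPM in FO) and GATA4 did not pass. Against control testis AMH (100.2 CPM in GF and 482 CPM in control) and GATA4 were lower in GF. The sum of 6 fibroblast markers was 1473 to 2658 CPM in GF, 3795 to 5896 CPM in FO and 4248 to 4269 CPM in control testis. The labelled testis origin was checked on the Sertoli and Leydig markers, and each of these markers had counts in all 3 groups, which any count above 0 would meet. The sum of 5 Leydig cell markers was 1339 to 2906 CPM in GF, 443 to 3585 CPM in FO and 13682 to 16310 CPM in control testis. Of these 5 genes, 4 were called lower in each graft than in control testis. The part of these cell types in the Wnt values was not tested. In such bulk tissue fewer cells of a type and less RNA per cell cannot be told apart.

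The 54 members took 0.0608% to 0.143% of the counts of a GF library, 0.192% to 0.262% in FO and 0.0917% to 0.102% in control testis. Members with at least 1 count numbered 33 to 46 per GF library, 41 to 44 in FO and 44 to 45 in control testis, and the lowest numbers, 35 and 33, were those of the shallow libraries GF 3 and GF 4. A filter on low counts left 34 members to be tested in GF versus FO and 38 against control testis. The other 16 members were never tested and reached at most 21 counts in any library. A gene can pass the filter through a single group where it is high, and the direction of a call is then largely set by the filter. All values below are CPM with TMM scaling, as mean ± SD where not given per library (n = 4 for GF, n = 4 for FO, n = 2 for control). Fold changes are log2 values ± SE from edgeR's quasi-likelihood test, and a gene is called where its Benjamini-Hochberg adjusted p over all genes tested is under 0.05.

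**Figure D1:**
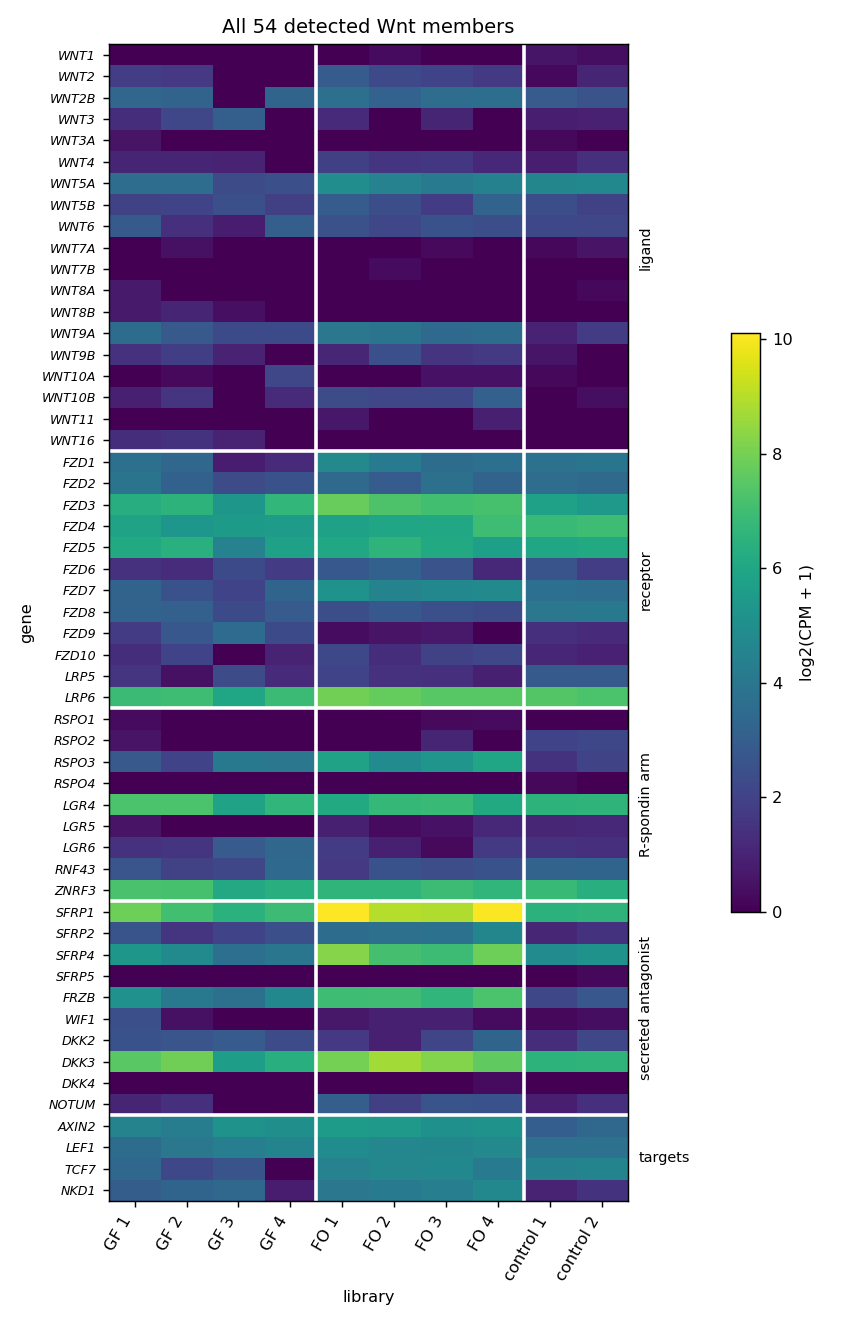
Level of each of the 54 detected members (rows, grouped by role) in each of the 10 libraries (columns), as log2(CPM + 1). The SFRP1, SFRP4 and FRZB rows are brightest in the 4 FO libraries, and many ligand rows are near 0 throughout.

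In GF versus FO, 1 member was higher and 11 were lower in GF, out of 34 tested. This is 35.3% of the tested members, against 30.5% of all 13782 genes tested, so the share of called members is near that of the whole table. By direction, 13.0% of all genes were called lower and 17.6% higher in GF. Of the 34 tested members 27 had a log2 fold change below 0, and their median was -0.96, against -0.02 over all genes tested. The direction of the calls over all genes leans on the scaling, as 57.5% of calls were higher in GF with TMM and 69.1% with total counts alone. The GF and FO libraries did not overlap for 15 of the 34 tested members, among them all 12 called, and for 36.0% of all genes tested.

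**Figure D2:**
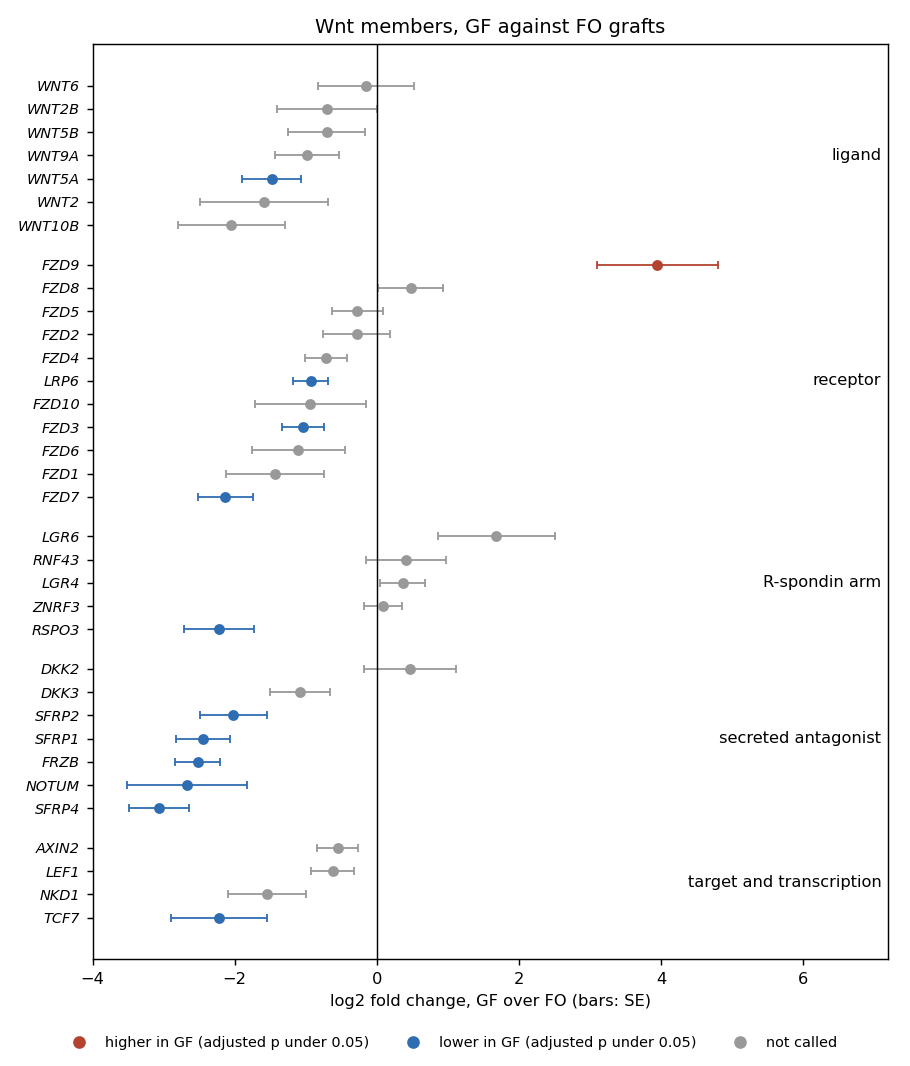
Log2 fold change of GF over FO (x axis) for each of the 34 tested members (y axis, grouped by role), with bars for the SE. The 11 members called lower lie between -3.07 and -0.93, and FZD9 at 3.95 is the member called higher.

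The secreted antagonists held the most calls of any role, 5 of 7 tested, all lower in GF. SFRP1, which binds Wnt proteins and keeps them from Frizzled, stood at 236, 131, 86.8 and 122 CPM in GF 1 to GF 4, against 1103, 505, 479 and 1049 CPM in FO 1 to FO 4. The highest GF library lay below the lowest FO library, and FO 1 and FO 4 stood far above FO 2 and FO 3. The log2 fold change was -2.45 ± 0.37 (adjusted p = 8.36e-04). Its gene lies on chromosome 17 of Sscrofa11.1, from 10436414 to 10489773 in the RefSeq annotation.

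SFRP4, a relative of SFRP1 made in many stromal tissues, stood at 40.2, 27.6, 12.0 and 14.8 CPM in GF, against 309, 138, 120.2 and 233 CPM in FO. FO 1 and FO 4 were again the highest. The log2 fold change, -3.07 ± 0.42, was the largest in size among the members called lower (adjusted p = 5.06e-04). FRZB, a Wnt-binding antagonist also known as SFRP3 and first known from cartilage, stood at 33.4, 16.2, 12.4 and 25.5 CPM in GF, against 125, 128, 100.1 and 152 CPM in FO. The FO libraries lay closer together for FRZB than for SFRP1 or SFRP4, and the log2 fold change was -2.52 ± 0.32 (adjusted p = 3.18e-04). SFRP2, which acts on Wnt signals in fibroblasts and in developing limbs, was low, with 5.13, 1.98, 3.10 and 4.49 CPM in GF, against 10.9, 12.4, 12.8 and 23.7 CPM in FO (log2 fold change -2.02 ± 0.47, adjusted p = 0.00720). These 4 genes kept the call under every alternative run for this comparison, with a highest adjusted p of 0.0384, for SFRP2.

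NOTUM, an esterase that strips the lipid from Wnt proteins and is itself a Wnt target in several tissues, had 5, 9, 0 and 0 counts in GF, against 26, 13, 25 and 23 counts in FO. Its log2 fold change was -2.67 ± 0.85 (adjusted p = 0.0323), and leaving out GF 2 moved it to -3.46. NOTUM passed the filter on low counts through its FO libraries alone, which largely set the direction of a call. The call was lost with the replicate number as a block (adjusted p = 0.0569) and without any single FO library (0.0540 to 0.105, within a range of 0.00698 to 0.130 over all alternatives), and also with total counts as scaling and without FO 1 and GF 3. DKK3, a divergent member of the DKK family, stood at 180.3, 242, 49.9 and 82.1 CPM in GF, against 254, 418, 298 and 201 CPM in FO, and the groups overlapped. It did not pass (-1.08 ± 0.42, adjusted p = 0.0716), but passed as lower in GF in 3 of 16 alternatives. These were the DESeq2 test (adjusted p = 0.0365), the replicate number as a block (-1.26, 0.0150) and leaving out GF 2 (-1.48, 0.021), within a range of 0.0150 to 0.211. DKK2, which binds the LRP co-receptors, averaged 5.25 ± 1.01 CPM in GF, against 3.78 ± 3.42 CPM in FO. It missed the threshold too (0.47 ± 0.65, adjusted p = 0.617).

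**Figure D3:**
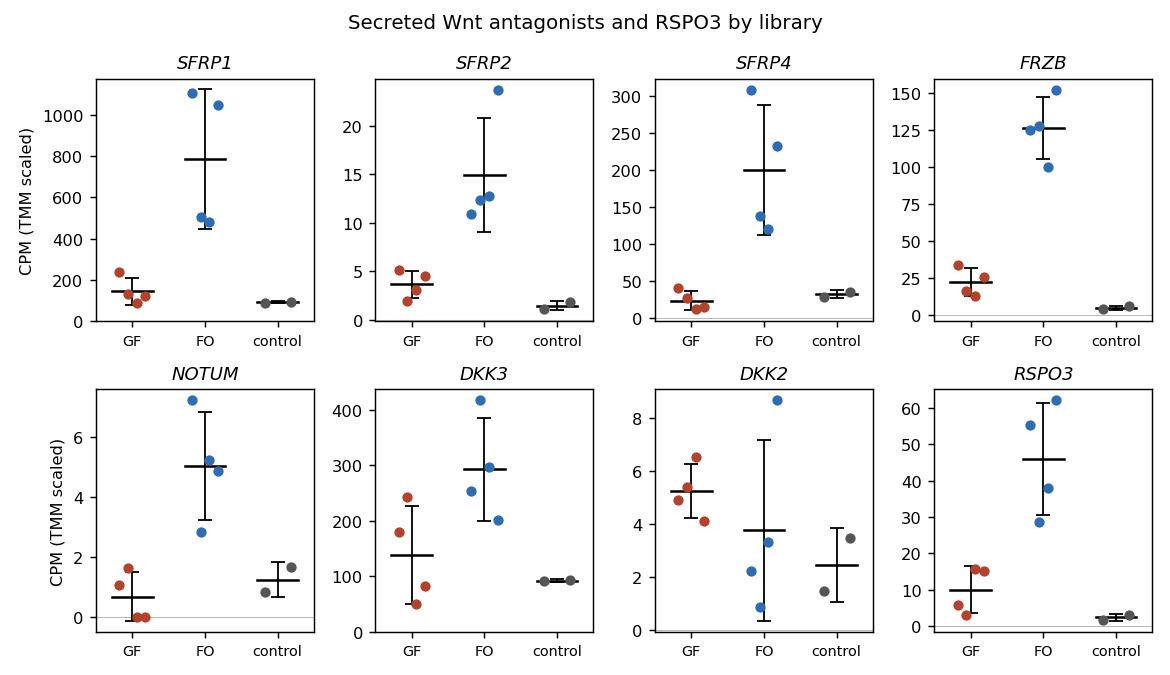
CPM (y axis, each panel with its own scale from 0) of 7 secreted antagonists and RSPO3 in GF, FO and control libraries, with a point for each library and lines for the mean ± SD. SFRP1, SFRP2, SFRP4, FRZB, NOTUM and RSPO3 show all 4 FO points above all GF points, whereas DKK3 and DKK2 overlap.

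Markers of other cell types were set beside the antagonists. The sum of the fibroblast markers was 2658, 1643, 1538 and 1473 CPM in GF 1 to GF 4, against 5661, 3795, 4126 and 5896 CPM in FO 1 to FO 4, so GF lay below FO, and FO 1 and FO 4 had both the most SFRP1 and SFRP4 and the most fibroblast marker RNA, though not in the same order. Of the 6 fibroblast markers 5 were called lower and 1, LUM, higher in GF. The sum of 5 epithelium markers moved likewise, at 149, 111, 141 and 179 CPM in GF, against 392, 247, 300 and 388 CPM in FO, and was 164 to 169 CPM in control testis. Of its 3 tested genes KRT8 and CDH1 were lower in GF. The sum of 5 macrophage markers was 1.04 to 5.99 CPM in GF, 20.2 to 104 CPM in FO and 209 to 262 CPM in control testis, with FO 1 and FO 4 again the highest in FO. The sum of 5 peritubular and smooth muscle markers ran the other way, at 553 to 765 CPM in GF, 175 to 282 CPM in FO and 308 to 360 CPM in control testis. The part of these cell types in the antagonist values was not tested. In control testis the fibroblast sum, 4248 and 4269 CPM, lay within the FO range, but its genes went both ways. COL3A1 and LUM averaged 1441 and 105 CPM in control testis, against 645 and 5.76 CPM in FO. COL1A1, COL1A2, PDGFRA and DCN averaged lower in control testis than in FO. SFRP1 was at 89.6 and 94.1 CPM and FRZB at 3.62 and 5.73 CPM in control testis, far below FO. What these sums mean for the antagonists was not tested.

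In the R-spondin arm RSPO3 was the only call among 5 tested members. RSPO3, a secreted enhancer of Wnt signals that acts through LGR receptors and in vessel and stromal development, stood at 5.99, 3.06, 15.8 and 15.2 CPM in GF, against 55.1, 28.7, 37.9 and 62.0 CPM in FO. GF 3 and GF 4 were higher than GF 1 and GF 2, opposite to SFRP1, and still below every FO library. The log2 fold change was -2.22 ± 0.49 (adjusted p = 0.00577), and the call held under every alternative run. Its gene spans 35985985 to 36066432 on chromosome 1.

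The receptors of the R-spondin arm and the ligases they act on did not pass between GF and FO. LGR4, an R-spondin receptor found in many epithelia, averaged 115 ± 46.6 CPM in GF, against 89.5 ± 23.5 CPM in FO (0.36 ± 0.32, adjusted p = 0.412). LGR6, another such receptor, averaged 4.80 ± 3.56 CPM in GF, against 1.48 ± 1.12 CPM in FO (1.68 ± 0.82, adjusted p = 0.140). The ligase ZNRF3 stood at 148, 143, 66.8 and 80.4 CPM in GF, against 96.0, 96.6, 120.2 and 100.5 CPM in FO (0.09 ± 0.27, adjusted p = 0.832). Its values in GF 1 and GF 2 lay above every FO library and those in GF 3 and GF 4 below every FO library. Without GF 3 and GF 4 both ZNRF3 (0.50, adjusted p = 0.0429, within a range of 0.0429 to 0.969) and LGR4 (0.76, adjusted p = 0.0160, within a range of 0.0160 to 0.679) passed as higher in GF. RNF43, the ligase related to ZNRF3, stood at 5.35, 2.88, 3.44 and 10.01 CPM in GF, against 2.23, 4.78, 4.19 and 4.87 CPM in FO (0.42 ± 0.56, adjusted p = 0.605).

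Among 11 tested receptors and co-receptors, 3 were lower and 1 was higher in GF. FZD7, a Frizzled of stem and progenitor cells in several tissues, stood at 8.34, 4.86, 3.10 and 8.63 CPM in GF, against 35.6, 21.9, 25.3 and 27.1 CPM in FO. The lowest FO library lay well above the highest GF library, and the call (-2.13 ± 0.38, adjusted p = 0.00194) held under every alternative. FZD3, known for its part in axon guidance and cell polarity, stood at 77.4, 91.0, 40.3 and 103 CPM in GF, against 215, 154, 130.5 and 144 CPM in FO (-1.04 ± 0.29, adjusted p = 0.0189). LRP6, the co-receptor of the canonical branch, stood at 117, 126, 62.7 and 117 CPM in GF, against 246, 207, 178 and 176 CPM in FO (-0.93 ± 0.25, adjusted p = 0.0155). The calls of FZD3 and LRP6 were lost without FO 1, whether or not GF 3 was also left out (adjusted p = 0.0843 and 0.0671, within ranges of 0.00413 to 0.0843 and 0.00189 to 0.0671).

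FZD9, a Frizzled known from brain and bone, ran the other way. It had 11, 32, 31 and 11 counts in GF, against 1, 2, 3 and 0 counts in FO, or 2.35, 5.76, 10.7 and 3.80 CPM in GF, against at most 0.628 CPM in FO. Every GF library lay above every FO library, with a log2 fold change of 3.95 ± 0.85 (adjusted p = 0.00504) that held under every alternative with a highest adjusted p of 0.0430. FZD9 passed the filter on low counts through its GF libraries alone, so the direction of a call was largely set by the filter. FZD9 lies at 10753294 to 10762812 on chromosome 3, and its annotated span overlaps that of BAZ1B. BAZ1B, a chromatin remodelling gene, averaged 96.7 CPM in GF, against 101 CPM in FO, without passing the test (-0.06, adjusted p = 0.906). Whether strand was used in counting is not stated, and reads of the stretch that the genes share cannot be assigned with certainty.

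The other 7 tested receptors did not pass, with log2 fold changes from -1.43 to 0.48. FZD1 was split inside GF, with 58 and 51 counts in GF 1 and GF 2 and 2 and 4 counts in GF 3 and GF 4, against 52 to 94 counts in FO (-1.43 ± 0.69, adjusted p = 0.137). It passed with the replicate number as a block (-1.94, adjusted p = 0.0275) and without GF 1 (-2.03, adjusted p = 0.0497), within a range of 0.0275 to 0.445. FZD4, which also serves as the receptor for norrin in vessels, averaged 46.5 ± 6.85 CPM in GF, against 76.5 ± 32.5 CPM in FO (-0.72 ± 0.29, adjusted p = 0.0803), and FO 4 at 125 CPM stood apart from 53.4 to 65.6 CPM in the other FO libraries. FZD5, FZD2, FZD8, FZD6 and FZD10 had adjusted p-values of 0.593, 0.679, 0.457, 0.221 and 0.391.

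Of 7 ligands tested, WNT5A was called. WNT5A, the leading ligand of the branch that does not run through β-catenin and a regulator of tissue outgrowth, stood at 11.12, 11.2, 4.13 and 4.49 CPM in GF, against 29.8, 21.3, 16.3 and 20.5 CPM in FO. No GF library reached the lowest FO library (-1.48 ± 0.42, adjusted p = 0.0186). The call was lost without FO 1 (-1.27, adjusted p = 0.0788) and without FO 1 and GF 3 (-1.10, adjusted p = 0.105), within a range of 0.00239 to 0.105. WNT10B, a ligand that holds back fat cell formation, had 4, 11, 0 and 4 counts in GF, against 14, 16, 17 and 36 counts in FO. Its groups did not overlap in CPM, but it did not pass (-2.05 ± 0.75, adjusted p = 0.0570). It passed with the DESeq2 test (0.0231) and without GF 2 (0.0482), within a range of 0.0231 to 0.182. WNT9A, a ligand of joint and skeletal development, stood at 10.9, 6.12, 3.79 and 3.80 CPM in GF, against 15.0, 13.7, 9.84 and 10.8 CPM in FO, with GF 1 inside the FO range (-0.98 ± 0.45, adjusted p = 0.115). Without GF 1 it passed (-1.40, adjusted p = 0.0364, within a range of 0.0364 to 0.342). WNT2, WNT2B, WNT5B and WNT6 did not pass, with log2 fold changes from -1.59 to -0.15. WNT2B, which had 43, 46 and 25 counts in GF 1, GF 2 and GF 4 and 37 to 54 counts in each FO library, was at 0 in GF 3.

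**Figure D4:**
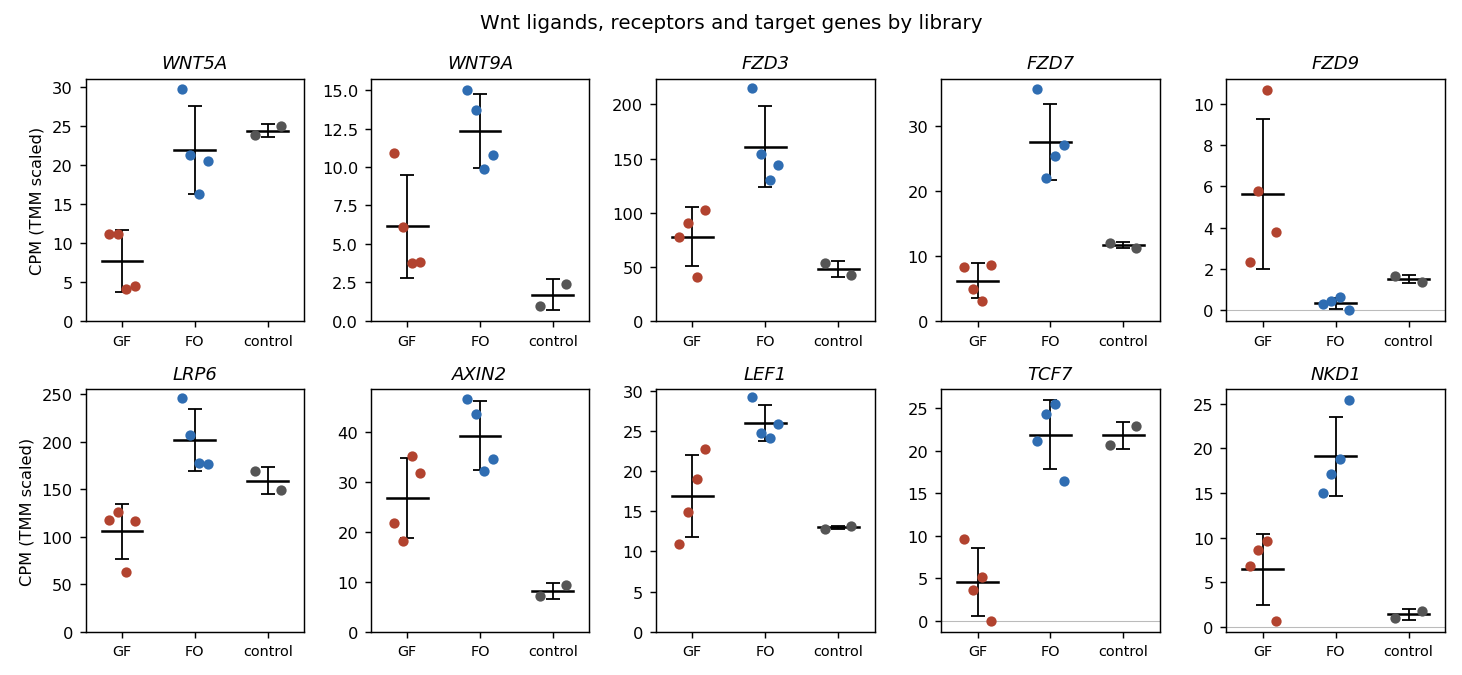
CPM (y axis, each panel with its own scale from 0) of 2 ligands, 4 receptors and 4 target or transcription genes by library, with lines for the mean ± SD. FZD9 is the panel where the GF points lie above FO, and for AXIN2 every graft point lies above both control points.

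Among the target and transcription genes, TCF7 was called and the other 3 were not. TCF7, a DNA-binding partner of β-catenin that is also prominent in T cells, stood at 9.63, 3.60, 5.17 and 0 CPM in GF, against 21.2, 24.3, 25.6 and 16.5 CPM in FO. The groups did not overlap (-2.22 ± 0.67, adjusted p = 0.0271), and leaving out GF 1 moved the log2 fold change to -2.86. The call was lost without GF 2, without any single FO library (adjusted p from 0.0519 to 0.0723) and without FO 1 and GF 3, within a range of 0.00231 to 0.105. LEF1, the related factor, stood at 10.9, 15.0, 18.9 and 22.8 CPM in GF, against 29.2, 24.8, 24.1 and 25.8 CPM in FO. Its groups did not overlap either, and it did not pass (-0.62 ± 0.30, adjusted p = 0.141).

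AXIN2, the feedback target most often read as a sign of β-catenin activity, stood at 21.8, 18.2, 35.1 and 31.8 CPM in GF, against 46.5, 43.6, 32.3 and 34.5 CPM in FO. GF 3 lay inside the FO range and the other GF libraries below it, and the gene did not pass (-0.55 ± 0.29, adjusted p = 0.169). NKD1, a feedback inhibitor that acts on Dishevelled, stood at 6.84, 8.65, 9.64 and 0.690 CPM in GF, against 15.0, 17.2, 18.8 and 25.4 CPM in FO, without overlap, and missed the threshold narrowly (-1.55 ± 0.55, adjusted p = 0.0505). It passed in 6 of 16 alternatives, among them leaving out GF 3 or GF 4 alone and the DESeq2 test (adjusted p = 0.0169, within a range of 0.00777 to 0.146). Without both GF 3 and GF 4, AXIN2 (-0.97, adjusted p = 0.00714, within a range of 0.00714 to 0.394) and LEF1 (-0.99, adjusted p = 0.0100, within a range of 0.0100 to 0.326) passed as lower in GF.

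Of 59 further genes of the pathway, 54 were in the table under the symbols used and 46 were tested. In GF versus FO 6 of them rose and 7 fell, 28.3% of those tested against 30.5% of all genes. CTNNB1, which encodes β-catenin, stood at 179, 162, 66.8 and 38.7 CPM in GF, against 516, 344, 291 and 392 CPM in FO, and fell (-1.79, adjusted p = 0.00764). Of 10 tested genes of the destruction complex and the cytoplasm, a list that includes CTNNB1, 3 rose, CTNNB1 alone fell and 6 did not pass, which were APC, GSK3B, CSNK1A1, DVL1, DVL2 and DVL3. Those that rose were AXIN1, the scaffold of the complex (125 ± 63.3 CPM in GF, against 36.3 ± 7.02 CPM in FO, 1.79, adjusted p = 0.00354), and the kinases CSNK1D (1.35, adjusted p = 0.00356) and GSK3A (1.10, adjusted p = 0.0187). AXIN1 was higher in GF 3 and GF 4, at 172 and 188 CPM, than in GF 1 and GF 2, at 73.8 and 67.7 CPM. WLS, which carries Wnt proteins to the cell surface, averaged 60.2 ± 28.8 CPM in GF, against 141 ± 19.6 CPM in FO, and fell (-1.22, adjusted p = 0.0167). NDP, which encodes norrin, the FZD4 ligand that is no Wnt protein, fell (-3.05, adjusted p = 0.00608), as did the glypican GPC3 (-1.88, adjusted p = 0.0131). The planar polarity cadherins CELSR2 (2.04, adjusted p = 8.99e-04) and CELSR3 (2.98, adjusted p = 0.00318) rose. Of 3 tested genes in a list of other reported Wnt targets, 2 fell and 1 did not pass.

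The comparisons with control testis show where each graft differed from the 2 control libraries, which GF and FO share. Age, growth in the host and the cells present cannot be told apart in them. In GF versus control 5 members were higher and 4 lower of 38 tested, 23.7% of them against 25.8% of all 15877 genes tested (14% higher, 11.8% lower). In FO versus control 11 were higher and 1 lower, 31.6% of the tested members against 18.7% of all genes (8.12% higher, 10.6% lower). The median log2 fold change of the tested members was 0.26 in GF and 0.59 in FO, against 0.03 and -0.04 over all genes. Graft and control libraries did not overlap for 15 of 38 tested members in GF and for 24 in FO, against 47.2% and 58.7% of all genes. With control 1 left out, none of the 9 member calls of GF remained by edgeR, with adjusted p-values of 0.0877, 0.0535 and 0.0528 for AXIN2, FZD4 and FRZB. Over all genes 1419 were then called, and 4129 had an unadjusted p under 0.05. DESeq2 was run on all libraries only and called 9 members, of which 8 were among the calls by edgeR. It lost RSPO2 and gained FZD8. With control 2 left out FRZB alone remained. In FO, 5 of the 12 calls remained without control 1 (AXIN2, FRZB, FZD3, RSPO3 and SFRP1) and 5 without control 2 (AXIN2, FRZB, RSPO3, SFRP1 and SFRP2).

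Of the secreted antagonists, 5 of 7 tested were higher in FO than in control testis and 1 was higher in GF. FRZB averaged 21.9 ± 9.44 CPM in GF, 126 ± 21.3 CPM in FO and 4.67 ± 1.49 CPM in control testis, a log2 fold change of 2.22 ± 0.43 for GF (adjusted p = 0.00244) and 4.74 ± 0.47 for FO (adjusted p = 3.51e-05). SFRP1 averaged 144 ± 64.0 CPM in GF, 784 ± 338 CPM in FO and 91.9 ± 3.15 CPM in control testis. It passed for FO (3.09 ± 0.49, adjusted p = 7.77e-04) and not for GF (0.65 ± 0.43, adjusted p = 0.280). SFRP4 averaged 23.7 ± 12.9 CPM in GF, 200.1 ± 87.8 CPM in FO and 31.9 ± 5.38 CPM in control testis, and likewise passed for FO (2.64 ± 0.52, adjusted p = 0.00366) and not for GF (-0.41 ± 0.46, adjusted p = 0.540). SFRP2 passed for FO (3.31 ± 0.65, adjusted p = 0.00363) and not for GF (1.28 ± 0.62, adjusted p = 0.141), as did DKK3 (1.66 ± 0.53, adjusted p = 0.0424 for FO, and 0.59 ± 0.50, adjusted p = 0.409 for GF). The FO call of DKK3 was lost in 7 of 18 alternatives, among them total counts as scaling and leaving out FO 1, FO 2, FO 3 or either control library (adjusted p from 0.0608 to 0.232, within a range of 7.61e-05 to 0.232). NOTUM, at 14 counts in GF, 87 in FO and 16 in control testis, passed in neither. It passed as higher in FO with only the 2 groups compared in the fit (adjusted p = 0.00901) and without GF 3 and GF 4 (0.0167).

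RSPO3 and RSPO2 were the R-spondins with enough counts to be tested, and they ran in opposite directions against control testis. RSPO3 averaged 10.02 ± 6.46 CPM in GF, 45.9 ± 15.3 CPM in FO and 2.49 ± 0.960 CPM in control testis. It rose in FO (4.18 ± 0.70, adjusted p = 0.00121) and in GF (1.95 ± 0.65, adjusted p = 0.0412), but the GF call was lost in 11 of 18 alternatives. Among them were the replicate number as a block (1.24, adjusted p = 0.172), leaving out GF 3, GF 4, FO 1, FO 3, FO 4 or either control library (adjusted p from 0.0540 to 0.262) and leaving out both GF 3 and GF 4 (0.81, adjusted p = 0.217), within a range of 0.00920 to 0.262. RSPO2, an R-spondin of limb and lung development, had 2, 0, 0 and 0 counts in GF, 0, 0, 5 and 0 counts in FO and 19 and 24 counts in control testis. From pooled counts, RSPO2 was 27.1-fold lower in GF than in control testis, with an exact 95% counting interval of 7.06 to 231. It was called in GF (adjusted p = 0.0364) and not in FO (adjusted p = 0.0840). RSPO2 passed the filter on low counts through control testis alone, so a lower direction in the grafts was largely set by the filter. Its graft counts, 2 in GF and 5 in FO, were too few to tell the grafts apart. The GF call was lost in 8 of 18 alternatives, among them the replicate number as a block (adjusted p = 0.0636), leaving out GF 2 (0.0762) or GF 3 (0.0570) and the DESeq2 test (0.0986), within a range of 0.0289 to 0.164. Without FO 3, which held all 5 FO counts, RSPO2 passed as lower in FO too (adjusted p = 0.0301, within a range of 0.00685 to 0.309). RSPO1 had at most 1 count in any library, and RSPO4 had 1 count in all. LGR4, ZNRF3 and RNF43 passed in neither graft, and RNF43 averaged 5.42 ± 3.24 CPM in GF, 4.01 ± 1.23 CPM in FO and 8.41 ± 0.0397 CPM in control testis.

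Both feedback targets, AXIN2 and NKD1, were called higher in both grafts than in control testis. AXIN2 averaged 26.7 ± 8.02 CPM in GF, 39.2 ± 6.91 CPM in FO and 8.21 ± 1.61 CPM in control testis, and each graft library lay above both control libraries. It rose in GF (1.69 ± 0.38, adjusted p = 0.00587) and in FO (2.249 ± 0.39, adjusted p = 0.00143). The span of AXIN2, 12311293 to 12343207 on chromosome 12, overlaps that of CEP112. CEP112, a centrosome gene, averaged 25.2 CPM in GF, 37.3 CPM in FO and 52.0 CPM in control testis, and against control testis it was lower in GF (-1.04, adjusted p = 0.0392) and did not pass in FO (-0.48, adjusted p = 0.377). NKD1 averaged 6.46 ± 4.01 CPM in GF, 19.1 ± 4.47 CPM in FO and 1.398 ± 0.582 CPM in control testis, with GF 4 at 0.690 CPM below both control libraries. It rose in FO (3.74 ± 0.81, adjusted p = 0.00606) and in GF (2.19 ± 0.77, adjusted p = 0.0494), but in GF the call was lost in 12 of 18 alternatives, among them the replicate number as a block (2.17, adjusted p = 0.0802) and leaving out any library except GF 4 (adjusted p from 0.0608 to 0.285), within a range of 6.85e-04 to 0.285. Its FO call was lost without either control library (0.0924 and 0.0624, within a range of 1.31e-06 to 0.0924). LEF1 averaged 16.9 ± 5.11 CPM in GF, 26.0 ± 2.28 CPM in FO and 13.0 ± 0.205 CPM in control testis and passed in neither graft (adjusted p = 0.470 for GF and 0.0719 for FO). In 6 of 18 alternatives LEF1 passed as higher in FO, among them the DESeq2 test (adjusted p = 0.0236). TCF7 did not follow the feedback targets. It averaged 4.60 ± 3.99 CPM in GF, 21.9 ± 4.04 CPM in FO and 21.8 ± 1.55 CPM in control testis, and fell in GF (-2.21 ± 0.69, adjusted p = 0.0310), with -2.88 without GF 1. That call was lost without GF 2 (adjusted p = 0.0569), without FO 1 (0.0512), without FO 1 and GF 3 (0.0622) and with only the groups compared in the fit (0.149), within a range of 0.00195 to 0.165.

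**Figure D5:**
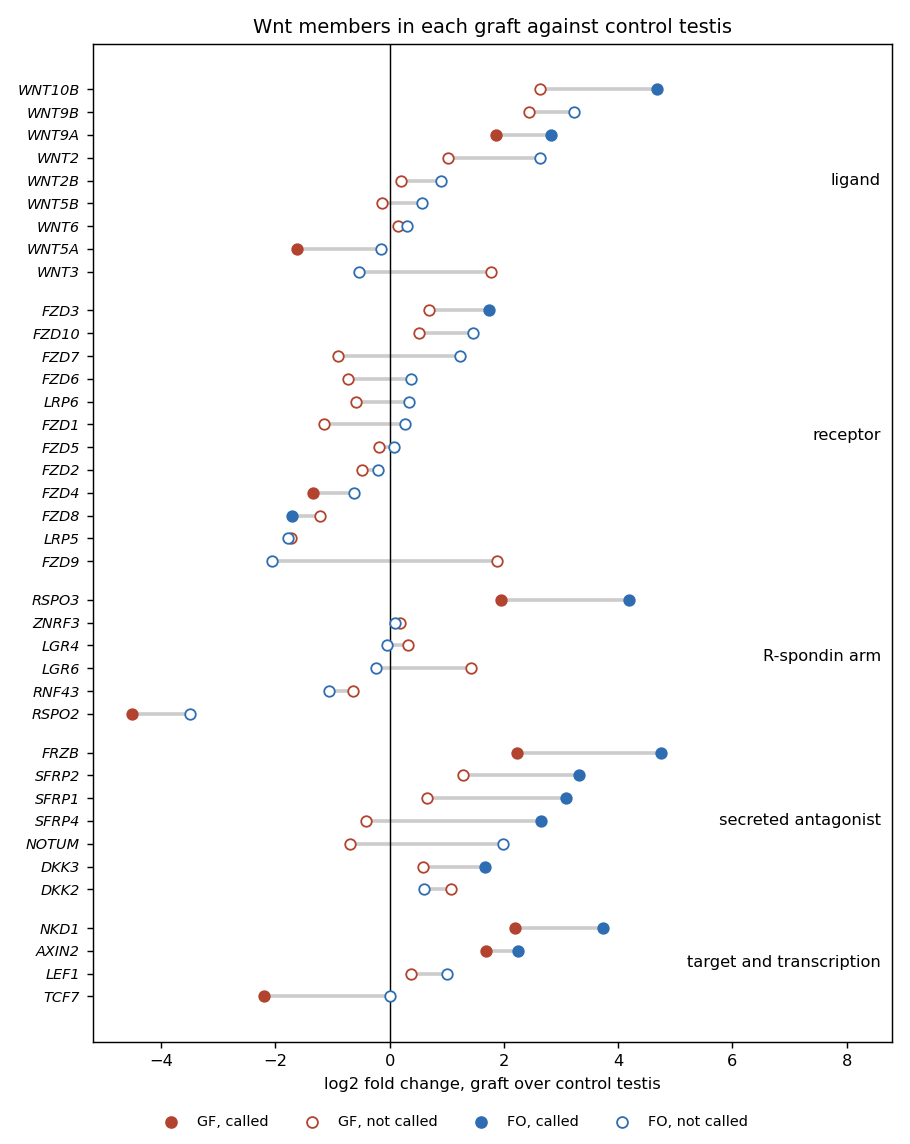
Log2 fold change over control testis (x axis) of GF and of FO for the 38 tested members (y axis, grouped by role), joined by a line, with filled points for members called. The FO point lies right of the GF point for SFRP1, SFRP2, SFRP4, FRZB, NOTUM and RSPO3, and fitted folds of genes with few control counts, such as WNT10B and WNT9B, are uncertain.

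Among receptors, FZD4 was lower in GF than in control testis and FZD3 was higher in FO. FZD4 stood at 55.4, 39.1, 44.1 and 47.3 CPM in GF, against 114 and 123 CPM in control testis (-1.35 ± 0.32, adjusted p = 0.00763). In FO it did not pass (-0.63 ± 0.32, adjusted p = 0.195), but without FO 4 it passed as lower (-0.97, adjusted p = 0.0293, within a range of 0.0293 to 0.534). Endothelial markers, of a cell type where FZD4 is known to act, summed to 29.2 to 55.4 CPM in GF, 92.4 to 162 CPM in FO and 221 to 225 CPM in control testis over 5 genes, and their part was not tested. The lower sum in GF than in FO rested largely on EMCN, at 1.04 to 11.8 CPM in GF and 50.5 to 79.5 CPM in FO, since PECAM1, CDH5, VWF and KDR did not pass between GF and FO. EMCN was at 12.5 and 14.5 CPM in control testis, lower than in FO, whereas PECAM1 and VWF were higher in control testis than in FO. FZD3 averaged 77.9 ± 27.1 CPM in GF, 161 ± 37.3 CPM in FO and 48.3 ± 7.52 CPM in control testis and rose in FO (1.73 ± 0.37, adjusted p = 0.00565). FZD8, a Frizzled, had 8.34, 7.56, 3.79 and 6.56 CPM in GF. Its FO libraries had 4.45, 5.86, 4.61 and 4.02 CPM, against 15.1 and 15.8 CPM in control testis. It fell in FO (-1.70 ± 0.46, adjusted p = 0.0197), a call lost with the replicate number as a block (-1.48, adjusted p = 0.0815) and without FO 1, FO 3 or FO 4 (adjusted p from 0.0523 to 0.0536), within a range of 4.19e-04 to 0.163, and did not pass in GF (adjusted p = 0.0653). With the DESeq2 test FZD8 passed as lower in GF too (-1.20, adjusted p = 0.0238). FZD7, at 6.23 ± 2.70 CPM in GF, 27.5 ± 5.83 CPM in FO and 11.7 ± 0.493 CPM in control testis, passed in neither, although both sets of graft libraries lay clear of the control libraries, GF below and FO above. In 5 of 18 alternatives FZD7 passed as higher in FO, among them the DESeq2 test (adjusted p = 0.0131). FZD9, with 19 counts in control testis, passed in neither. LRP5, the co-receptor related to LRP6, had 27 counts in GF, 31 in FO and 80 in control testis and did not pass (adjusted p = 0.143 and 0.156).

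Among ligands, WNT5A averaged 7.73 ± 3.95 CPM in GF, 21.98 ± 5.64 CPM in FO and 24.4 ± 0.836 CPM in control testis. It fell in GF (-1.63 ± 0.44, adjusted p = 0.0158), and FO and control testis overlapped (-0.16 ± 0.44, adjusted p = 0.850). WNT9A averaged 6.15 ± 3.35 CPM in GF, 12.3 ± 2.43 CPM in FO and 1.70 ± 1.01 CPM in control testis. It rose in FO (2.83 ± 0.66, adjusted p = 0.00983, with 3.60 without control 2) and in GF (1.85 ± 0.64, adjusted p = 0.0479, with 2.62 without control 2). The GF call of WNT9A was lost without GF 1 (adjusted p = 0.0983), without GF 2 (0.0635) and without any single FO library (0.0678 to 0.0747), within a range of 0.00235 to 0.324, and its FO call without either control library (0.129 and 0.0534, within a range of 4.26e-05 to 0.129). WNT10B had 83 counts in FO and 2 in control testis, a pooled ratio of 29.8 with an exact 95% counting interval of 7.996 to 250.2, and was called in FO (adjusted p = 0.0258). Without control 1 the fitted log2 fold change of WNT10B was 3.87 and without control 2 it was 7.37, and its call was lost without FO 1 (adjusted p = 0.0523) and without FO 4 (0.0656), within a range of 2.93e-04 to 0.213. WNT9B, of kidney tubule development, had 26 counts in GF, 45 in FO and 3 in control testis and passed in neither graft.

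The ligands too low to be tested included WNT4, which is known for its part in the ovary and Müllerian duct, with 14 counts in GF, 35 in FO and 16 in control testis. WNT16 and WNT8B had counts in GF only. WNT16, a ligand of bone and skin, had 7, 10, 3 and 0 counts in GF, and WNT8B had 3, 6, 1 and 0. Taking 3 counts summed over FO as the floor, the pooled GF level was 7.36-fold that floor for WNT16 and 3.68-fold for WNT8B. The floor covers the counting error of the 0 in FO and not that of the GF counts. WNT16 was called in GF versus FO when no filter on low counts was applied. WNT8B overlaps the annotated spans of SEC31B and of LOC106509031, a long non-coding RNA. SEC31B averaged 18.1 CPM in GF, against 18.3 CPM in FO. LOC106509031 had 2, 2, 6 and 0 counts in GF, 0, 0, 1 and 0 in FO and 0 in both control libraries. The part of these overlaps in the WNT8B counts was not tested. WNT11 was at 0 in GF and in control testis and had 6 counts in FO. WNT3A had 2 counts in GF, 0 in FO and 1 in control testis, and WNT1 had 0, 1 and 5. WNT7A, WNT7B, WNT8A and WNT10A stayed at 10 counts or fewer in every library. LGR5, a stem cell marker and R-spondin receptor, had 2 counts in GF, 12 in FO and 15 in control testis. WIF1, a secreted Wnt-binding inhibitor, had 21, 2, 0 and 0 counts in GF, 2, 4, 4 and 1 in FO and 1 and 2 in control testis, so that GF 1 held most of its GF counts. SFRP5 and DKK4 had 1 count each in all. A count of 0 in a single library allows up to 3 counts, or 0.452 to 1.04 CPM at these depths. Such floors cover the counting error of a 0 only, and the intervals cover counting error only.

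Several ligand genes lie beside each other in the genome of Sscrofa11.1, and neighbours did not have the same counts. WNT9A and WNT3A are 25632 bases apart on chromosome 2, and WNT9A had 107 counts in GF, 215 in FO and 22 in control testis, against the few counts of WNT3A. WNT3 and WNT9B are 27849 bases apart on chromosome 12. WNT3, a ligand of early body axis formation, had 7, 19, 21 and 0 counts in GF, 5, 0, 5 and 0 in FO and 5 and 6 in control testis, so that its sum was higher in GF and that of WNT9B higher in FO. WNT6 and WNT10A are 7845 bases apart on chromosome 15, and WNT6 had 61 counts in GF, 77 in FO and 45 in control testis. WNT1 and WNT10B overlap by annotation on chromosome 5, so their counts may be mixed where strand was not used. In all, 19 of the 54 members overlap another annotated gene, and their counts may be uncertain where reads fall in the shared stretch. Some partners had few or no counts, such as LOC110260613 at WNT7B and LOC110262177 at DKK2, and others, such as BAZ1B at FZD9, had many. How far the overlaps bear on the counts was not tested.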

How the data were processed

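RNA was isolated with Trizol and libraries were made with QuantSeq, which counts reads at the 3' ends of polyA transcripts, per the labels' protocols. The deposited values are whole-number counts of reads for each gene symbol, not normalized. The submitters' processing notes name Sscrofa11.1 and DESeq2 1.42.0 without a role, while an aligner, a counting tool or a strand setting is not given in the sources used here. Table columns were assigned to libraries from their group letters and numbers, F standing for FO. Low genes were removed with filterByExpr (minimum count 10), counts were scaled with TMM, and groups were compared with edgeR 4.0.16 (robust quasi-likelihood F test, R 4.3.3). The fit of GF versus FO held the 8 grafts, and that of each comparison with control testis held all 10 libraries. Positions and overlaps come from RefSeq by symbol (54 of 54 members matched).

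The members were set by gene name and not by their values. The name rule, gene lists, tests and alternatives were fixed with earlier results of these data known. Per-library values are given for members called in GF versus FO, for up to 5 further members called in each comparison with control, and for 15 members listed by name wherever tested. Of other pathway genes the 8 with the lowest p in GF versus FO are named, as are all tested genes of the destruction complex and cytoplasm. Alternatives were DESeq2 1.42.0, RLE factors, scaling by total counts, no filter on low counts, a replicate block, fits with other libraries added or removed, leaving out GF 3 and GF 4 or FO 1 and GF 3, and leaving out each library in turn. Deviations of same-numbered GF and FO libraries had a correlation across genes of 0.103, 0.256, 0.116 and 0.112 for numbers 1 to 4, each over the limit of 0.1 set for treating numbers as pairs. Libraries of different numbers ran from -0.189 to 0.148, and GF 1 (0.130 with FO 2) and GF 4 (0.148 with FO 3) correlated more with another number than with their own. The pairing is therefore a weak hint from the data and is not stated in the labels. The main fit held no block although the limit of 0.1 was met, and the block was run as an alternative. In the comparisons with control testis the block also joined control and graft libraries of the same number. The labels give no such link and it was not checked, so calls lost with that block are weak evidence. With the block in GF versus FO, NOTUM lost its call and DKK3 and FZD1 gained one. The method was also run on data simulated from its own count model. Those data held no shift shared by many genes of a library, such as that of GF 3 and GF 4, so the run does not bear on it. Libraries of 1 group differed beyond counting noise, so none was counted as a duplicate.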

Additional observations from a re-analysis of the deposited data

Results flagged for a closer look

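In 7 of 76 groups of 4 libraries examined, 1 library stood far from the other 3 by Dixon's criterion, where chance gives about 1 in 20. FO 4 was high for SFRP2 at 23.7 CPM, against 10.9 to 12.8 CPM in the other FO libraries, for WNT10B at 7.62 CPM (3.47 to 3.90 in the others) and for FZD4 at 125 CPM (53.4 to 65.6 in the others). GF 3 was low for WNT2B at 0 CPM, against 8.29 to 9.20 CPM in the other GF libraries, and for LRP6 at 62.7 CPM (117 to 126 in the others). In the other 2 groups the criterion could not fail, since 3 libraries at 0 put any count in the fourth far from them. There RSPO2 was at 0 except for 0.428 CPM in GF 1, which is 2 counts, and 1.05 CPM in FO 3, which is 5 counts.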

How the results depend on the processing

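No called member changed sign under any alternative run. SFRP1, SFRP2, SFRP4, FRZB, FZD7, FZD9 and RSPO3 kept their call in GF versus FO under all 16 alternatives. In GF versus FO, 4205 genes were called, and 2265 without FO 1 and GF 3, which left 6 members lower. Members called higher were 2 with no filter and 3 without GF 3 and GF 4. In GF versus control, 4091 genes were called, and 2185 with only the 2 groups in the fit, which left 2 members higher and 1 lower. There, 3 members were higher with the replicate block, 10 without GF 3 and GF 4, and 2 were lower without FO 1 and GF 3. In FO versus control, 2972 genes were called, 6738 with only the 2 groups in the fit (17 members higher, 4 lower) and 6469 without GF 3 and GF 4 (17 higher, 3 lower), and no member was lower by edgeR with the replicate block, where FZD8 had an adjusted p of 0.0815 and 5359 genes had an unadjusted p under 0.05, while DESeq2 kept FZD8. In FO versus control, the fit of only the 2 groups added FZD7, LEF1, NOTUM, WNT2, WNT2B and WNT9B as higher. It added LRP5, RNF43 and RSPO2 as lower. In GF versus control, leaving out GF 3 and GF 4 added DKK3, FZD3, LGR4, WNT10B, WNT9B and ZNRF3 as higher and LRP5 as lower. It lost RSPO3. The cause of these changes was not tested. With 1 library left out, genes called ranged from 2645 to 4677 in GF versus FO (members higher 1 to 1, lower 6 to 13), from 1147 to 4715 in GF versus control (higher 0 to 4, lower 0 to 4) and from 819 to 3967 in FO versus control (higher 5 to 13, lower 0 to 1). The fewest genes were called without FO 1 in GF versus FO and without control 2 in both comparisons with control testis, where the lone control library is assumed to vary like the other groups. With total counts alone as scaling, the median of all genes in GF versus FO moved to 0.13, against -0.02 with TMM. The replicate block changed only the member calls given above. Low totals in GF 3 and GF 4 limit what can be seen of genes under about 1 CPM.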
